A study of Mus musculus with 14 samples.

Results

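Crystallins are the abundant soluble proteins that keep the eye lens clear. The genes described here are Cryaa, which encodes alphaA-crystallin, Cryba1, which encodes betaA1/A3-crystallin, and Cryab, which encodes alphaB-crystallin. They were followed on 14 Affymetrix MG_U74Av2 arrays of mouse corneal stroma and of stromal cells in culture. Every probe set whose platform annotation gives 1 of these 3 symbols was taken, which found 3 genes among 8251 on the array and 4 probe sets among 12422 that are not controls. Cryaa had the probe set 102393_at, Cryba1 had 104518_at, and Cryab had 162308_f_at and 93279_at.

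All samples came from CD-1 mice. The myofibroblast cultures (3 arrays) were adult stromal cells grown in DMEM with 10% fetal bovine serum plus TGF beta 1 at 10 ng/ml. The fibroblast cultures (3 arrays) had 10% fetal bovine serum without TGF beta 1, and the keratocyte cultures (3 arrays) had 1% platelet-poor horse serum. Adult stroma (3 arrays) was dissected at 7 to 8 weeks, the age of the mice that gave all the cultured cells, and P10 stroma (2 arrays) was dissected at postnatal day 10. The culture names are those of the labels, and the cultures are primary. No label says whether replicates came from separate mice or separate cultures, so p-values measure the spread between these arrays, which may be technical.

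AlphaA- and alphaB-crystallin are small heat shock proteins that hold unfolded proteins in solution, and in the lens they form mixed oligomers. Cryaa is used mainly in the lens, with low levels known in retina and a few other tissues, and Cryba1 belongs to the beta-crystallins, which are structural lens proteins also found in retina. Cryab is in addition a stress protein of heart, skeletal muscle, glia and fibroblasts, where it binds desmin, vimentin and actin filaments and is induced by heat and other insults. The cornea itself holds soluble enzymes in crystallin-like amounts, and these are called corneal enzyme crystallins.

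Deposited signals are linear probe set intensities that stop at 1, the floor. Background was read from 19 control probe sets for bacterial and yeast transcripts, whose 266 values had a median of 42.2 and a 95th percentile of 137.7. A signal at or below 137.7 is called within background here. Array medians ran from 102.0 to 135.6, and correlations within groups from 0.911 to 0.987. The 3'/5' signal ratio of Actb, which rises as RNA degrades, was 4.05 on adult replicate 1, 1.49 and 1.77 on the other adult arrays, 1.44 to 1.47 in P10 stroma and 1.06 to 1.20 in the cultures. The stromal proteoglycan genes Lum and Dcn gave signals of 817 or more on every array. Kera, the keratocyte proteoglycan keratocan, was within background on all myofibroblast (4.24 to 13.1) and fibroblast arrays (1.504 to 84.3) and on keratocyte replicate 2 (15.7), and gave 315.1 and 164.0 on keratocyte replicates 1 and 3, against 214.0 to 429.1 in adult and 503.9 to 609.3 in P10 stroma. This keratocyte marker was thus above background on 2 of 9 culture arrays, both among the 3 labelled keratocyte. Precision is limited by the number of arrays.

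Cryaa and Cryba1 were high on all 5 tissue arrays and within background on all 9 culture arrays. Cryaa gave 89.9, 48.3 and 60.8 in myofibroblast cultures, 91.6, 114.7 and 70.1 in fibroblast cultures and 104.8, 97.7 and 102.6 in keratocyte cultures. It gave 1819, 3136 and 2879 in adult stroma and 2250 and 4053 in P10 stroma. The lowest tissue array was 15.9 times the highest culture array, a ratio to a signal within background and not a measured fold change.

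Cryba1 gave 33.1, 41.5 and 28.2 in myofibroblast cultures, 29.7, 30.6 and 21.5 in fibroblast cultures and 21.1, 16.5 and 31.8 in keratocyte cultures. It gave 1328, 2120 and 1833 in adult stroma and 1722 and 3058 in P10 stroma. Tissue and culture signals stood 32.0-fold apart at their nearest point. No culture array reached the background limit, so this ratio is not a measured fold change.

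**Figure D1:**
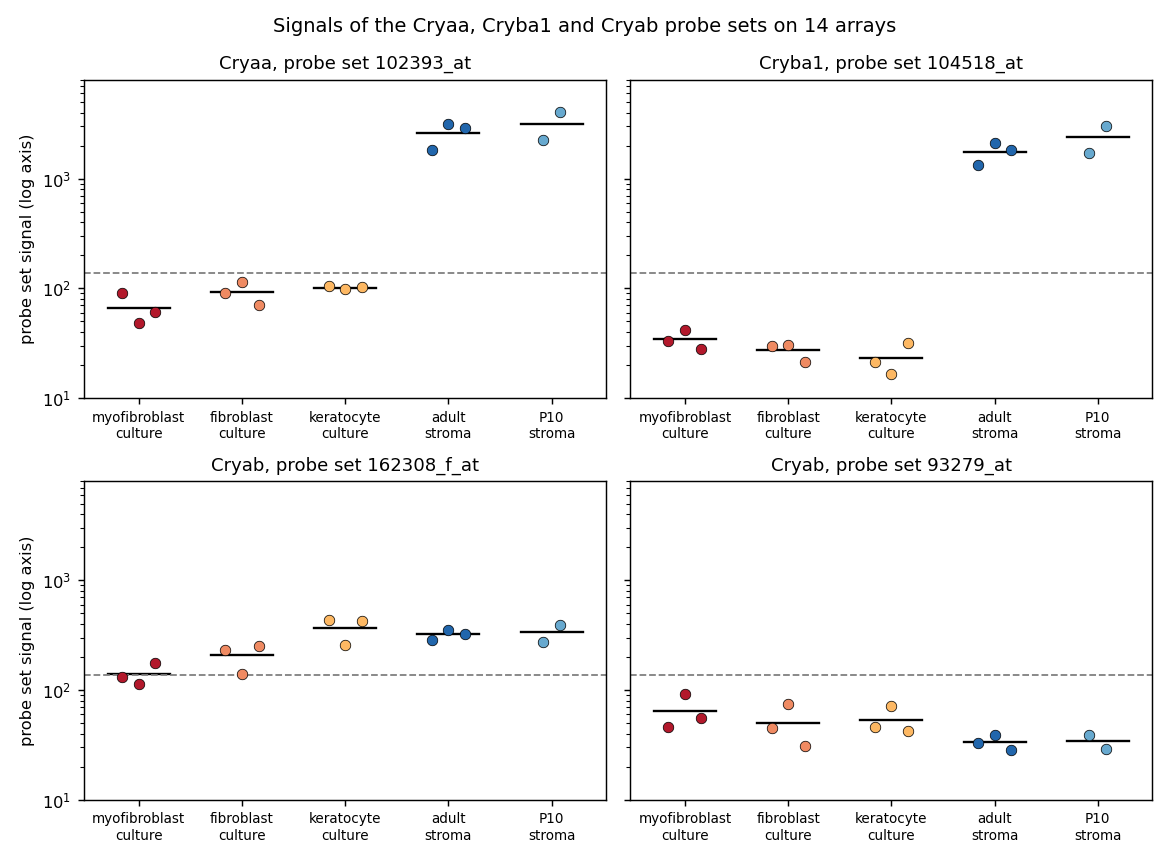
Signals of the 4 probe sets on each of 14 arrays, on a log axis. Points are arrays, black bars are group means, and the dashed line is the 95th percentile of the control probe sets (137.7). Cryaa and Cryba1 lie far above the line on the 5 tissue arrays and below it on the 9 culture arrays, Cryab 162308_f_at lies near or above it in every group, and Cryab 93279_at lies below it on every array.

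The 250 bases before the annotated starts of Cryaa and Cryba1 are shown because both hold a run of letters that is marked below. The sequences are from RefSeq on GRCm38.p6, at chr17:31677681-31677930 on the plus strand for Cryaa and at chr11:77725294-77725543 on the minus strand for Cryba1. Capitals mark TGCTGAC, which is one side of a Maf recognition element, the element that lens Maf factors bind, and a TATA-like run near the start.
Cryaa: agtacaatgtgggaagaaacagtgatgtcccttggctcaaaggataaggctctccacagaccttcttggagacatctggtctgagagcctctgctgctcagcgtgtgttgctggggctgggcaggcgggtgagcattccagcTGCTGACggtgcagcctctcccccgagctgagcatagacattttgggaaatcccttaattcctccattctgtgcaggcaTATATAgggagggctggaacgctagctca
Cryba1: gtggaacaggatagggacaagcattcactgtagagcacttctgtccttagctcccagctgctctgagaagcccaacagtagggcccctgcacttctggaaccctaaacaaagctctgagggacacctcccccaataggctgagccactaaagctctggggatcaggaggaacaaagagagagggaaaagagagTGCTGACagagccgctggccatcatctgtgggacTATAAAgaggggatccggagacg

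The run TGCTGAC lies at positions -108 to -102 from the Cryaa start and -57 to -51 from the Cryba1 start. TATATA lies at -29 to -24 in Cryaa, and TATAAA lies at -23 to -18 in Cryba1. Both strands were searched, for letters chosen with the sequences in view, and the TATA-like runs can overlap each other. Of 32851 promoters of the same length 3.81% hold TGCTGAC, 5.25% hold TATATA and 12.4% hold TATAAA. GAANNTTC, the core of the heat shock element, is held by 6.69% and was not found in these windows. A match is a description of letters and not a shown binding site.

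Both genes fell in every culture relative to adult stroma. Cryaa averaged 66.3 ± 21.4 in myofibroblast, 92.1 ± 22.3 in fibroblast and 102 ± 3.60 in keratocyte cultures, against 2611 ± 698 in adult stroma (SD, n = 3 each). It was at least 18.5-fold lower in each culture, a bound taken as the geometric mean of the adult arrays (2542) over the background limit (137.7). limma's adjusted p was 4.07e-09 for myofibroblast, 9.61e-09 for fibroblast and 1.63e-08 for keratocyte cultures.

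Cryba1 averaged 34.3 ± 6.70 in myofibroblast, 27.3 ± 5.02 in fibroblast and 23.1 ± 7.80 in keratocyte cultures, against 1760 ± 401 in adult stroma (SD, n = 3 each). It was at least 12.5-fold lower in each culture on the same bound, from an adult geometric mean of 1728. limma's adjusted p was 9.70e-10, 5.99e-10 and 5.16e-10 for the same 3 comparisons. Cryba1 passed the filter on low signals (a group mean of 50 or more in at least 1 group) only through the tissue groups in which it is high, so a difference was built into its entry to the test and these p-values add no support. In bulk samples such as these, fewer cells of a type and less RNA per cell cannot be told apart.

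Counted by gene, 3 of 3 members fell in myofibroblast cultures, where 15.5% of all 10370 probe sets tested were called lower. In fibroblast cultures 2 of 3 fell, beside 12.3% of all, and in keratocyte cultures 2 of 3 fell, beside 9.25% of all. The third gene in each case is Cryab. With Cryba1 entered as described, these counts are a description of the members.

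Within tissue, the order of the 5 arrays was the same for Cryaa and Cryba1: adult replicate 1 lowest, then P10 replicate 1, adult replicate 3, adult replicate 2, and P10 replicate 2 highest. Adult replicate 1 is also the array with the high Actb ratio (4.05), and the part of RNA quality in its low values was not tested. The ages overlapped for both genes. Cryaa was 2611 ± 698 in adult (SD, n = 3) and 3152 ± 1275 in P10 stroma (SD, n = 2), a log2 difference of -0.25 (SE 0.30, limma adjusted p = 0.800). Cryba1 was 1760 ± 401 in adult (SD, n = 3) and 2390 ± 945 in P10 stroma (SD, n = 2), a log2 difference of -0.41 (SE 0.26, limma adjusted p = 0.550).

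No member was called between the ages, where 3.26% of probe sets were called lower in adult stroma and 0.453% higher. P10 replicate 2 had more than P10 replicate 1 for both genes, and that gap was wider than the gap between the group means. Leaving out P10 replicate 1 gave log2 differences of -0.67 for Cryaa and -0.82 for Cryba1, and neither was called. Leaving out P10 replicate 2 gave 0.18 and 0.01. Leaving out adult replicate 1 gave -0.01 and -0.22. P10 replicate 2 was also the highest tissue array for the summed signal of 6 pigment cell markers, with 5178, against 1738 on P10 replicate 1 and 718.5 to 937.2 in adult stroma.

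**Figure D2:**
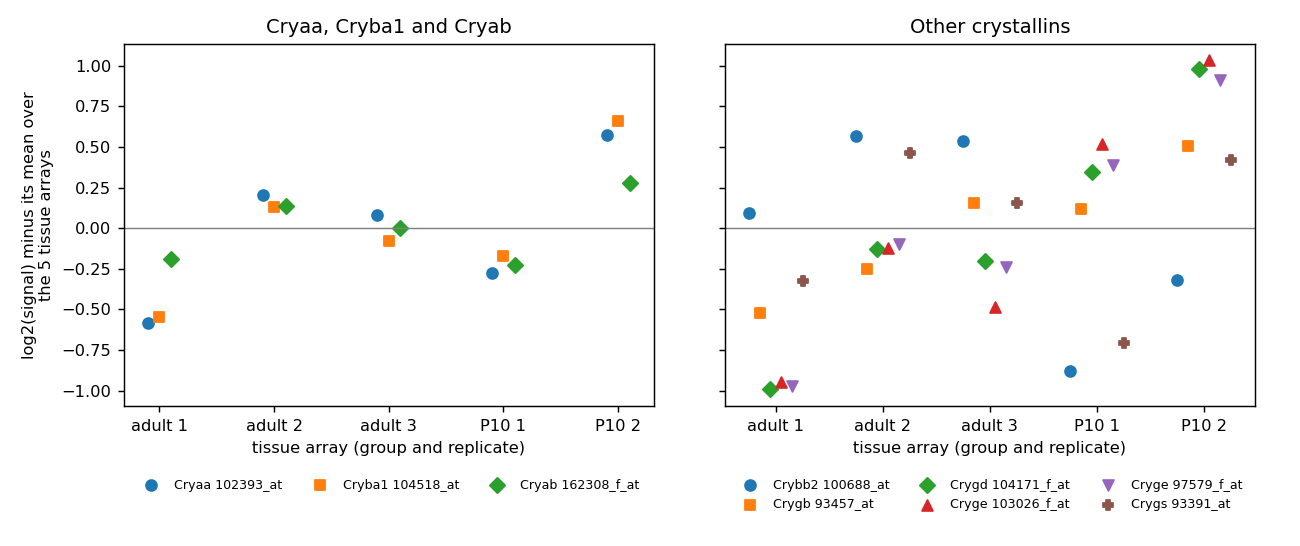
Log2 signal of each probe set minus its own mean over the 5 tissue arrays, for the members (left panel) and for 6 probe sets of other crystallins that were above background in tissue (right panel). Each point is 1 array. Cryaa and Cryba1 lie within 0.2 of each other on every array, and the gamma-crystallin probe sets marked _f_at lie above their mean on both P10 arrays and below it on the 3 adult arrays.

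Among cultures, Cryaa and Cryba1 were within background and not called. In fibroblast against keratocyte cultures the log2 difference was -0.14 for Cryaa (limma adjusted p = 0.932) and 0.16 for Cryba1 (0.913). In myofibroblast against fibroblast cultures it was -0.40 (0.844) and 0.21 (0.937).

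On the probe set 162308_f_at, Cryab stayed above background in keratocyte and fibroblast cultures but not on every myofibroblast array. Its mean was highest in keratocyte cultures, near that of tissue, and lowest in myofibroblast cultures. This probe set gave 131.9, 114.4 and 175.7 in myofibroblast cultures, 234.1, 141.1 and 255.0 in fibroblast cultures and 432.5, 255.7 and 423.4 in keratocyte cultures. It gave 284.2, 356.8 and 325.1 in adult stroma and 277.1 and 393.2 in P10 stroma. It was above background on 7 of 9 culture arrays and on 5 of 5 tissue arrays, and the 2 within background were myofibroblast replicates 1 and 2.

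From high to low, the group means were 371 ± 99.5 in keratocyte cultures (SD, n = 3), 335 ± 82.1 in P10 stroma (SD, n = 2), 322 ± 36.4 in adult stroma (SD, n = 3), 210 ± 60.6 in fibroblast cultures (SD, n = 3) and 141 ± 31.6 in myofibroblast cultures (SD, n = 3). The first 3 groups overlapped. Keratocyte cultures differed from adult stroma by 0.16 on the log2 scale (SE 0.25, limma adjusted p = 0.671), and adult from P10 stroma by -0.04 (SE 0.28, adjusted p = 0.981). Fibroblast and myofibroblast cultures overlapped too, with a difference of -0.51 (SE 0.25, limma adjusted p = 0.687).

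Cryab was lower in myofibroblast cultures than in adult stroma, with no overlap, by -1.12 on the log2 scale (SE 0.25, limma adjusted p = 0.00341). It was also lower in myofibroblast than in keratocyte cultures, by -1.29 (SE 0.25, limma adjusted p = 0.00710), again with no overlap. There Cryab was the 1 member of 3 called, beside 4.88% of probe sets called lower.

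Some lists of cell type markers moved the same way in that comparison and others did not. Of 6 pigment cell markers 6 were called lower in myofibroblast than in keratocyte cultures, of 11 macrophage and leukocyte markers 6 were, and of 8 keratocyte markers 3 were, with none called higher. Of 13 corneal epithelium markers 1 was called lower. Of 9 contractile, 10 muscle and 16 retina markers 0 were called in either direction. The summed pigment signal was 495.8 to 626.3 in myofibroblast and 456.8 to 691.9 in fibroblast cultures, against 2052 to 2424 in keratocyte cultures. Dct, a melanin synthesis enzyme, averaged 334 ± 58.8 in myofibroblast and 1200 ± 92.4 in keratocyte cultures (SD, n = 3 each), and Tyrp1, a second one, was at the floor of 1 on 1 myofibroblast array. The summed signal of 12 macrophage markers was 1365 to 2156 in myofibroblast and 1561 to 2928 in fibroblast cultures, against 3109 to 3917 in keratocyte cultures. The part of these cell types in the Cryab difference was not tested.

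For Cryab, fibroblast cultures lay between: every array was below every keratocyte and every adult array, as for 10.7% and 15.8% of all probe sets, but neither difference was called.

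The fibroblast difference from adult stroma was -0.61 on the log2 scale (SE 0.25, limma adjusted p = 0.0815). It was called when arrays were quantile normalized (-0.69, adjusted p = 0.0208) or centred on their medians (-0.68, adjusted p = 0.0288), so the call depends on scaling. Fibroblast against keratocyte cultures gave -0.78 (SE 0.25, limma adjusted p = 0.236), where no member was called beside 1.18% of probe sets called lower. Myofibroblast against fibroblast cultures had no member called either, beside 0.781% called lower. Replicate numbers pair the arrays of that last comparison, and with the number as a block 253 probe sets were called in place of 111, still with no member.

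In each culture, replicate 2 had the lowest Cryab signal on 162308_f_at. Those arrays also had the lowest median signal of their group, at 102.0 in myofibroblast, 107.1 in fibroblast and 117.7 in keratocyte cultures. The enzyme crystallin Aldh3a1, an aldehyde dehydrogenase that makes up much of the soluble protein of the mouse cornea, gave 222.3 on fibroblast replicate 2 and 124.9 on keratocyte replicate 2, the lowest of each group. Kera was lowest on replicate 2 of each culture as well (4.24 in myofibroblast, 1.504 in fibroblast and 15.7 in keratocyte cultures). The part of array brightness in the Cryab values was not tested beyond the scalings above.

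The other Cryab probe set, 93279_at, was within background on all 14 arrays. It gave 46.4, 92.9 and 56.1 in myofibroblast cultures, 45.2, 74.3 and 30.6 in fibroblast cultures, 46.4, 72.1 and 42.6 in keratocyte cultures, 32.8, 39.1 and 28.4 in adult stroma and 39.3 and 28.8 in P10 stroma. Replicate 2 was the highest array of each culture here, the reverse of the first probe set. It passed the filter on low signals only through the culture means and was not called in any of the 7 comparisons.

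The probe sets of Cryab thus disagree, with a correlation of -0.669 over the 14 arrays. The suffix _f_at marks a probe set whose probes may match related sequences, so the Cryab values of 162308_f_at are uncertain to that extent. Statements on Cryab here rest on that probe set.

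The contrast between Cryab and the lens genes was measured within arrays. Cryab (162308_f_at) minus Cryaa, in log2(signal + 16), averaged 1.22 ± 0.57 over culture arrays (SD, n = 9) and -3.01 ± 0.26 over tissue arrays (SD, n = 5). The shift was 4.23 and no arrays overlapped. A two-sided exact permutation test gave p = 0.0004995, also after Benjamini-Hochberg adjustment over the 2 pairs, the smallest p that the 2002 splits allow. That p follows from the gap of Cryaa between tissue and culture, which is wider than the whole range of Cryab, and the test treats arrays of 5 groups as exchangeable, so it adds no support and the shift is a description.

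Cryab minus Cryba1 averaged 2.42 ± 0.82 over culture arrays (SD, n = 9) and -2.52 ± 0.27 over tissue arrays (SD, n = 5). The shift was 4.94, with the same exact permutation p (0.0004995) and the same limit. Cryaa and Cryba1 were within background in culture, which limits how large each shift could be measured. The difference is one of changes and does not set the level of 1 probe set against another.

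**Figure D3:**
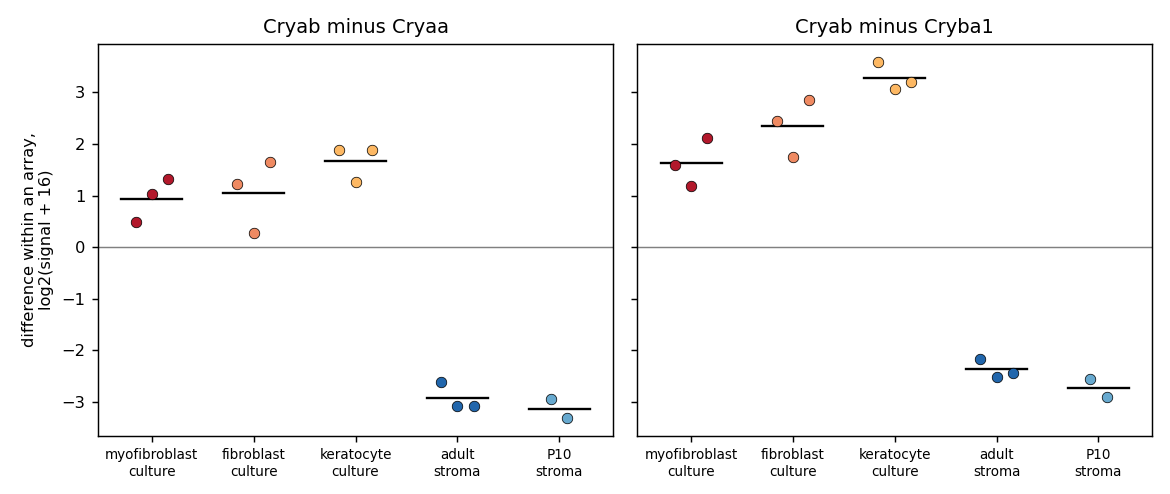
Difference in log2(signal + 16) within each array, Cryab 162308_f_at minus Cryaa (left panel) and minus Cryba1 (right panel). Points are arrays and black bars are group means. All 9 culture arrays lie above 0 and all 5 tissue arrays below -2.

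Other lens crystallins followed Cryaa and Cryba1 on 6 of 12 probe sets. The array measured 6 of 13 listed genes, on 12 probe sets: Crybb2, a beta-crystallin, and the gamma-crystallins Crygb, Crygc, Crygd, Cryge and Crygs. Together with the members, 8 of 16 crystallin probe sets, for 7 genes, were above background on all 5 tissue arrays and on no culture array. Of all 12422 probe sets 1.46% had that pattern.

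Crybb2 (100688_at) gave 1576, 2188 and 2138 in adult stroma and 801.3 and 1183 in P10 stroma, against 23.6 to 36.7 over the cultures. It was the only crystallin probe set higher in adult than in P10 stroma past the threshold, by 0.99 on the log2 scale (SE 0.21, limma adjusted p = 0.0153). Crygs (93391_at) gave 1404 ± 372 in adult (SD, n = 3) and 1249 ± 656 in P10 stroma (SD, n = 2), and was not called between ages.

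Gamma-crystallin genes, which are known to be used early in lens fibres, had lower means in adult than in P10 stroma on the 4 probe sets of this pattern other than Crygs, of which 1 was called. Cryge (103026_f_at) gave 1218, 2159 and 1680 in adult stroma and 3359 and 4799 in P10 stroma, lower in adult by -1.28 on the log2 scale (SE 0.33, limma adjusted p = 0.0470). A second Cryge probe set (97579_f_at) and Crygd (104171_f_at) gave -1.08 and -1.09, with arrays that did not overlap but limma adjusted p of 0.0907 and 0.120. Crygb (93457_at) gave -0.51 (limma adjusted p = 0.433). Gamma-crystallin genes are close copies of each other, and the _f_at probe sets cannot be assigned to 1 gene with certainty.

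Against adult stroma, each culture was lower by at least 14.1-fold for Crybb2 and for Crygd (104171_f_at), 8.56-fold for Crygb and 9.94-fold for Crygs, on the same bound. All of these were called by limma, with adjusted p from 3.04e-11 to 1.30e-08. Like Cryba1, they passed the filter only through the tissue groups in which they are high, so these calls are a description.

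**Figure D4:**
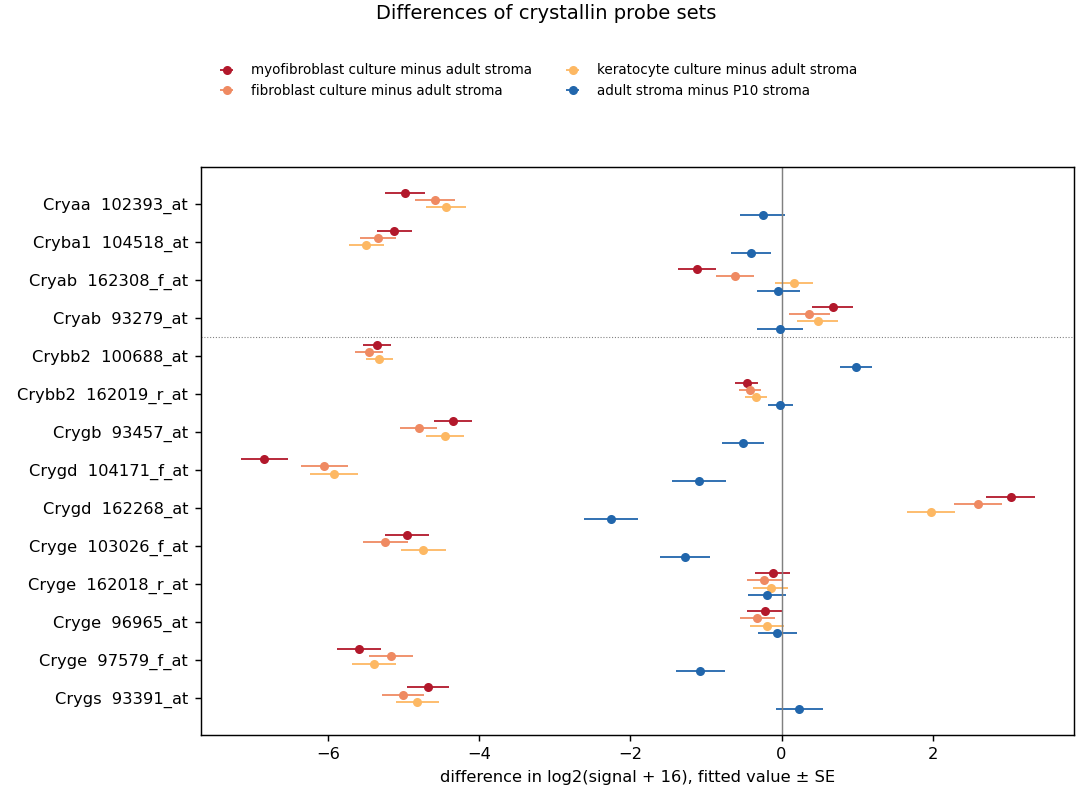
Fitted differences in log2(signal + 16) with their SE for the 14 tested crystallin probe sets, the 4 member probe sets above the dotted line. Points right of 0 are higher in the group named first. Cryaa, Cryba1 and 6 other probe sets lie below -4 in all 3 cultures, Cryab lies between -1.12 and 0.68, and Crygd 162268_at lies above 0 in the cultures. Where a culture is within background the point is the fitted value and not a bound.

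Some probe sets broke the pattern. Crygd 162268_at gave 1489, 1173 and 2216 in myofibroblast, 1110, 763.5 and 1836 in fibroblast and 693.1, 711.3 and 857.2 in keratocyte cultures, against 156.8, 128.7 and 276.1 in adult stroma. In P10 stroma it gave 1017 and 818.8, and adult stroma was lower by -2.26 on the log2 scale (limma adjusted p = 0.00247). It was higher in each culture than in adult stroma, by 3.03, 2.60 and 1.98 on the log2 scale (limma adjusted p = 4.59e-06, 2.33e-05 and 0.000279), the reverse of 104171_f_at under the same symbol. These probe sets do not measure 1 quantity, and which of them reads Crygd cannot be told from signals.

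A second Crybb2 probe set (162019_r_at) stayed between 153.7 and 266.5 on all arrays. A second Crygb probe set (161780_f_at) and the only one of Crygc (96586_at) were listed at 1 on all 5 tissue arrays, and 2 further Cryge probe sets (162018_r_at and 96965_at) were within background throughout.

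Most genes that mark the lens other than crystallins did not pass the test. Of 21 listed, 11 were measured and 10 tested. In myofibroblast cultures against adult stroma 1 was called higher (Sox1) and 3 lower (Pax6, Hsf4 and Prox1), in fibroblast cultures 0 and 2 (Pax6 and Hsf4), and in keratocyte cultures 1 (Sox1) and 1 (Pax6). Of all probe sets, 17.5% were called higher and 15.5% lower in myofibroblast, 18.4% and 12.3% in fibroblast, and 21.8% and 9.25% in keratocyte cultures. Sox1 and Prox1, lens fibre transcription factors, are outside the choice by signal and were named after their values were seen. The group means of both were within background in adult stroma and in every culture. The list's median difference was -0.18 in myofibroblast cultures, beside -0.01 over all probe sets.

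Pax6, the eye-field transcription factor that is also used in corneal epithelium and retina, gave 20.2, 30.3 and 3.25 in myofibroblast, 59.2, 57.6 and 1.86 in fibroblast and 299.4, 177.5 and 248.8 in keratocyte cultures. It gave 1129, 914.2 and 830.2 in adult stroma and 1283 and 1032 in P10 stroma. It was within background on every myofibroblast and fibroblast array, at least 6.89-fold lower in each than in adult stroma on the bound used for Cryaa (limma adjusted p = 1.29e-06 and 4.44e-06). In keratocyte cultures it was above background and lower by -1.93 on the log2 scale (limma adjusted p = 0.00496). Hsf4, a heat shock factor of the lens, averaged 118 in myofibroblast, 101 in fibroblast and 131 in keratocyte cultures, against 202 in adult stroma.

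Pitx3 and Gja3, a lens transcription factor and a lens fibre gap junction protein, averaged between 186 and 319 in every group and were not called. Mip, the main membrane protein of lens fibres, was named after its values were seen: it gave 108.8, 30.6 and 116.8 in adult stroma and 90.0 and 143.4 in P10 stroma, against 58.6 to 99.0 over the cultures, within background on 13 of 14 arrays. Maf, likewise named afterwards, lay between 29.5 and 70.8 on all arrays.

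Markers of other tissues moved with Cryaa and Cryba1. The summed signal of 14 corneal epithelium markers was 662 to 895 over the cultures, against 24657 to 28294 in adult and 25259 to 25641 in P10 stroma. Of 13 tested, 13 were called lower in every culture than in adult stroma, beside 15.5%, 12.3% and 9.25% of all probe sets in myofibroblast, fibroblast and keratocyte cultures, and Col17a1, Itgb4 and Epcam were at the floor on all culture arrays. Krt12, the keratin of corneal epithelium, averaged 7148 in adult and 6891 in P10 stroma.

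The summed signal of 17 retina and photoreceptor markers was 736 to 928 over the cultures, against 2811 to 6495 in adult and 3714 to 5368 in P10 stroma. Of 16 tested, 14 were called lower in myofibroblast, 12 in fibroblast and 12 in keratocyte cultures than in adult stroma, beside the same shares of all probe sets. Genes of both lists that are under 50 in culture passed the filter through tissue, as Cryba1 did. The sum was highest on adult replicate 3, whereas Cryaa and Cryba1 were highest on P10 replicate 2: it was 2811, 3775 and 6495 on adult replicates 1 to 3 and 3714 and 5368 on P10 replicates 1 and 2. Guca1a, a photoreceptor calcium sensor, gave 811, 1098 and 811 in adult and 308 and 256 in P10 stroma. It does not stand for the list between the ages. Of the 16 tested, only Guca1a was called higher in adult than in P10 stroma and 1 was called lower, beside 0.453% and 3.26% of all probe sets. The list's median difference between the ages was -0.31 on the log2 scale, beside -0.12 over all probe sets. The part of lens, epithelium or retina carried over in dissection was not tested.

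Markers of cells that the cultures could hold were counted against adult stroma too, where 17.5%, 18.4% and 21.8% of all probe sets were called higher in myofibroblast, fibroblast and keratocyte cultures. Of 8 keratocyte genes 2 were higher and 4 lower in myofibroblast cultures, 2 and 3 in fibroblast cultures, and 4 and 1 in keratocyte cultures. Of 9 contractile genes 6 were higher and 1 lower in myofibroblast cultures, 6 and 0 in fibroblast cultures, and 6 and 1 in keratocyte cultures. Of 11 macrophage genes 3 were higher and 3 lower in myofibroblast cultures, 7 and 1 in fibroblast cultures, and 7 and 0 in keratocyte cultures. Of 6 pigment genes 4 were higher and 0 lower in keratocyte cultures, and 0 were called in myofibroblast or fibroblast cultures. Of 10 muscle genes 3 were higher in myofibroblast, 2 in fibroblast and 2 in keratocyte cultures, and 1 was lower in each.

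The genes whose pattern was most like each member's were found by the Pearson correlation of log2(signal + 16) over the 14 arrays. For Cryaa they were Cbr2 (0.993), Reep6 (0.993), Prom1 (0.991), Krt6a (0.991) and Krt14 (0.988). For Cryba1 they were Krt6a (0.995), Krt14 (0.994), Krt12 (0.993), Dsp (0.993) and Col17a1 (0.993), keratins and junction proteins of epithelium. Cryaa and Cryba1 correlated at 0.988 with each other. All these values rest on the split between tissue and culture arrays.

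For Cryab (162308_f_at) the most alike were Adcy9 (0.953), Cd151 (0.950), Atp6v1b2 (0.949), Hsd17b11 (0.945) and Etnk1 (0.927). None of these separates tissue from culture: Cd151, a cell surface tetraspanin, ran from 537 to 1352 over the cultures and from 1060 to 1186 over tissue. Adcy9 was within background on all arrays, from 64.6 to 122.9 over the cultures and from 92.4 to 120.3 over tissue.

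The relatives of Cryab among small heat shock proteins were measured for 3 of 6 listed genes. Hspb8 (160139_at), a partner in the removal of unfolded proteins, gave 235.1, 287.9 and 321.9 in myofibroblast, 322.0, 282.2 and 340.1 in fibroblast and 293.9, 353.2 and 326.9 in keratocyte cultures, against 176.4, 130.7 and 234.2 in adult stroma. It was higher in each culture, by 0.62, 0.78 and 0.82 on the log2 scale (limma adjusted p = 0.0281, 0.00844 and 0.00594). Hspb8 was thus higher in myofibroblast cultures, where Cryab was lower. A second Hspb8 probe set (162448_f_at) was within background on all arrays.

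Hspb2, which lies within the annotated span of Cryab in RefSeq, averaged 231 ± 8.46 in myofibroblast, 228 ± 6.52 in fibroblast and 234 ± 18.7 in keratocyte cultures, against 170 ± 14.4 in adult stroma (SD, n = 3 each) on 103215_g_at. Its differences from adult stroma (0.39 to 0.43 on the log2 scale) were not called, and its other probe set (103214_at) was within background throughout. Hspb1, a widely expressed small heat shock protein, was within background on all arrays with its 1 probe set.

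Of 19 other chaperones and heat shock genes tested, 4 were higher and 5 lower in myofibroblast cultures than in adult stroma, 8 and 4 in fibroblast cultures, and 9 and 3 in keratocyte cultures. The shares of all probe sets were 17.5% higher and 15.5% lower, 18.4% and 12.3%, and 21.8% and 9.25% in the same order. The median difference in keratocyte cultures was 0.71, beside 0.12 over all probe sets. Between myofibroblast and keratocyte cultures, where Cryab was lower too, 4 were lower and 0 higher, beside 4.88% of all probe sets called lower. These were Hsp90aa1, Hsph1, Hspa1a and Hspa1b, the last 3 named after their values were seen. Hspa1a was within background on every array of both groups, and Hspa1b on every myofibroblast array. Hsp90aa1, an inducible HSP90, was at 1025 ± 121 in myofibroblast and 1720 ± 249 in keratocyte cultures (SD, n = 3 each).

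Hspa8, the constitutive HSP70, averaged 1807 ± 284 in myofibroblast, 1843 ± 396 in fibroblast and 2020 ± 225 in keratocyte cultures, against 901 ± 284 in adult stroma (SD, n = 3 each), and was called higher in each. The mitochondrial chaperonins Hspd1 and Hspe1 were called higher in keratocyte cultures. The stress-inducible HSP70 genes ran the other way. Hspa1b gave 61.8, 57.6 and 130.3 in myofibroblast, 115.5, 82.5 and 195.7 in fibroblast and 227.8, 150.5 and 190.0 in keratocyte cultures, against 3202, 3138 and 3204 in adult stroma and 3010 and 3063 in P10 stroma.

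Hspa1a gave 1.33, 1.00 and 2.54 in myofibroblast, 15.4, 5.60 and 34.4 in fibroblast and 38.4, 22.9 and 39.3 in keratocyte cultures, against 1646, 1494 and 1011 in adult stroma and 1158 and 1014 in P10 stroma. Both fell in each culture (limma adjusted p from 4.72e-10 to 1.01e-07), though Hspa1a passed the filter only through tissue, as Cryba1 did. Hspa1a and Hspa1b are near-identical copies, so their probe sets may read both. Keratocyte cultures thus differed from adult stroma past the threshold for the inducible HSP70 genes and not for Cryab.

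Filament genes that alphaB-crystallin binds were measured for 5 of 6 listed. In myofibroblast cultures 2 were higher (Acta1 and Actc1, the skeletal and cardiac actins) and 1 lower (Des) than in adult stroma, in fibroblast cultures 1 (Actc1) and 0, and in keratocyte cultures 2 (Acta1 and Actc1) and 1 (Des). The shares of all probe sets were 17.5% higher and 15.5% lower, 18.4% and 12.3%, and 21.8% and 9.25% in the same order. Des, which encodes desmin, averaged 167 ± 17.8 in myofibroblast cultures and 256 ± 36.7 in adult stroma (SD, n = 3 each), lower by -0.57 on the log2 scale (limma adjusted p = 0.0110). Vim, which encodes vimentin, averaged 225 ± 26.5 in myofibroblast cultures and 141 ± 56.9 in adult stroma (SD, n = 3 each), not called.

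Of 6 corneal enzyme crystallins tested, 3 were lower and 0 higher in myofibroblast cultures than in adult stroma, 3 and 1 in fibroblast cultures, and 1 and 1 in keratocyte cultures. The shares of all probe sets were 15.5% lower and 17.5% higher, 12.3% and 18.4%, and 9.25% and 21.8% in the same order. Tkt, which encodes transketolase, averaged 345 ± 34.8 in myofibroblast, 530 ± 82.3 in fibroblast and 1062 ± 450 in keratocyte cultures, against 5006 ± 188 in adult stroma (SD, n = 3 each). Tkt fell in all 3 cultures but, unlike Cryaa and Cryba1, stayed above background. Aldh3a1, by contrast, was within background on every myofibroblast array (1.00 to 44.3), against 6154 to 7415 in adult stroma. Its signals were 222.3 to 3721 in fibroblast and 124.9 to 3778 in keratocyte cultures. Ldha, a lactate dehydrogenase, averaged 3377 ± 420 in keratocyte cultures and 1830 ± 223 in adult stroma (SD, n = 3 each) and was called higher there.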

How the data were processed

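Total RNA (5 µg per array) was labelled for Affymetrix arrays. The deposited values are intensities per probe set, made per the labels with Microarray Suite 5.0 (MAS5 in the submitters' processing notes) and a target of 150. The table holds 12488 probe sets, of which 66 are controls, and no detection calls. The scaling is not settled, since 2% trimmed means ran from 164.3 to 224.7.

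Deposited intensities were taken to log2(signal + 16), and 10370 probe sets with a group mean of 50 or more in at least 1 of 5 groups were fitted with limma 3.58.1 (R 4.3.3), 1 mean per group, all 14 arrays in 1 fit, with an empirical Bayes trend. P-values were two-sided and adjusted by Benjamini-Hochberg over all of them, with a threshold of 0.05. The fit was tested on simulated data, where it recovered 53% to 65% of log2 changes of 1 and 96% to 98% of changes of 2. A change of 1 or less can thus go uncalled. Fold changes on log2(signal + 16) understate low genes. Of non-control probe sets 10833 have 1 symbol, 396 several and 1193 none. For a list, each gene's probe set with the highest mean on the log2 scale was used. For Crybb2 and Crygd these were 162019_r_at and 162268_at, which did not follow Cryaa and Cryba1.

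Named genes were the members, every measured gene of the crystallin and small heat shock lists, and the 5 genes most correlated with each member. At most 4 genes of each other list were added, those with the highest mean on the log2 scale, which need not have the highest linear signals. Kera, which was outside the 4 of its list, is an exception, and others are stated where they occur. Members and lists were chosen with earlier results of these data known. Replicate numbers pair myofibroblast and fibroblast arrays (correlation of deviations 0.623, 0.682 and 0.533), and in no other comparison did every number exceed 0.1. Single numbers did: replicates 1 to 3 gave 0.197, 0.572 and 0.069 for fibroblast against keratocyte cultures. For myofibroblast against keratocyte cultures they gave 0.221, 0.409 and 0.074, so a link by number with keratocyte arrays is not excluded. Alternatives were other added constants, filters and scalings, fits of 2 groups, the block, and leaving out each array. Lists of pigment, macrophage, muscle, contractile and keratocyte genes were also counted.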

Additional observations from a re-analysis of the deposited data

How the results depend on the processing

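No called member lost its call or changed sign under any alternative run. Cryab (162308_f_at) in fibroblast cultures against adult stroma gained its call under quantile normalization (-0.69) and median centring (-0.68), in place of -0.61. Its myofibroblast difference from keratocyte cultures kept limma adjusted p between 0.00320 and 0.0475, and that from adult stroma between 0.000715 and 0.0161. The shifts of Cryab against Cryaa and Cryba1 ran from 3.78 to 4.42 and from 3.999 to 5.51. Some differences near 0 that were never called changed sign. Under quantile normalization and centring, Cryab 162308_f_at gave 0.076 and 0.13 for adult against P10 stroma and -0.031 and -0.011 for keratocyte cultures against adult stroma, and 93279_at gave 0.18 and 0.16 (0.059 with the replicate block) for the ages and 0.0061 and 0.0022 for fibroblast against keratocyte cultures. With 1 array left out, adult against P10 stroma ran from -0.67 to 0.18 for Cryaa, from -0.82 to 0.0053 for Cryba1, from -0.28 to 0.20 for Cryab 162308_f_at and from -0.17 to 0.14 for 93279_at. Fibroblast against keratocyte cultures ran from -0.29 to 0.011 for Cryaa and from -0.36 to 0.12 for 93279_at, and myofibroblast against keratocyte cultures from -0.031 to 0.38 for 93279_at. A filter at 100 removes 93279_at, so it has no value there.

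Counts of called probe sets moved more. Between adult and P10 stroma 385 were called, 225 with only those arrays in the fit and 117 to 495 when 1 array was left out (220 without adult replicate 1, 117 and 134 without P10 replicates 1 and 2). Between fibroblast and keratocyte cultures it was 142, with 83 at an added constant of 1, 46 with only those arrays and 20 to 144 with 1 array left out (59 without fibroblast replicate 3, 36 and 20 without keratocyte replicates 1 and 3). Between myofibroblast and fibroblast cultures it was 111, with 16 for only those arrays, 253 with the replicate block and 61 to 151 with 1 array left out (61 without myofibroblast replicate 3). Between myofibroblast and keratocyte cultures it was 620, and 298 to 678 with 1 array left out (411 without myofibroblast replicate 3, 298 and 304 without keratocyte replicates 1 and 3). The causes were not tested, apart from the smaller number of arrays in the fits of 2 groups and with 1 array left out. The replicate block changed no call of a member.

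Scaling changed the split of calls. The share called higher was 12.2% as deposited and 24.1% after centring for adult against P10 stroma, 70.2% and 52.9% for keratocyte cultures against adult stroma, and 18.4% and 41.9% for myofibroblast against keratocyte cultures. It was 14.1% and 25.5% for fibroblast against keratocyte cultures, and 27.0% and 39.3% for myofibroblast against fibroblast cultures. Centring moved the median of all probe sets by over 0.1 in 4 comparisons, to 0.05 in place of -0.12 (log2) for adult against P10 stroma, -0.05 in place of 0.12 for keratocyte cultures against adult stroma, 0.02 in place of -0.09 for fibroblast against keratocyte cultures and 0.04 in place of -0.13 for myofibroblast against keratocyte cultures. Members near background cannot be ordered.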
